A study of Mus musculus with 8 samples.

Results

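Chromosome 11 carried 1300 of the 25499 H2A.X domains that 6 lists from mouse embryonic stem (ES) cells hold. They are all domains placed on chromosome 11 from just past 3 Mb on, where the lists begin on it, and 0 domains of chromosome 11 started before it. The chromosome was chosen from its coverage on the TKO control side of 1 list, so its values in that list are given as a description. The TKO list holds 104 of the domains, the TDG list 80, the DNMT1 list 241, the list of 2i and serum 569, the list of PKCi and 2i 138 and the list of SRCi and 2i 168. All positions are on the mouse build mm9 and carry no gene annotation here.

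The series compared H2A.X by native chromatin immunoprecipitation and sequencing in 8 samples, 1 library per condition. The lists set DNMT1 KO cells in serum against their control, and wild-type cells in 2i against serum, PKCi against 2i and SRCi against 2i. The 129/Ola strain supplied TDG KD cells with their wild-type control and TKO cells with theirs, all in serum, while DNMT1 KO cells and the cells in 2i, PKCi and SRCi were labelled 129S6/C57B6. The labels do not spell out TKO. Cells in serum were grown with 15% fetal bovine serum. The PKCi medium contained 5 µM of the protein kinase C inhibitor Gö6976, and the SRCi medium 1.5 µM of the Src kinase inhibitor CGP77675 with 3 µM of the GSK3 inhibitor CHIR99021. The wild-type serum library and the control of DNMT1 KO enter only through the lists, and were not analysed here as samples.

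H2A.X is a variant of the core histone H2A that is built into nucleosomes across the genome and is phosphorylated around DNA breaks, where it helps to gather repair proteins. DNMT1 copies DNA methylation to the new strand after replication, and TDG excises oxidised methylcytosine, a step of active demethylation. The 2i medium blocks MEK and GSK3, and is known to hold ES cells in a ground state with low DNA methylation. Mouse chromosomes have their centromere at one end, so low positions lie close to satellite repeats. Chromosome 11 is known to be rich in genes, and is also one of the chromosomes that mouse ES cell lines are known to gain in culture.

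Each domain is marked as higher in 1 of the 2 libraries of its list, and these are called the sides of the list. A domain also has a signed score that points toward the first library of the list when it is high. Scores are set against an offset that differs between lists, given here as the length-weighted median score of the list. This median lies among the scores of the side with more bases, and is not the score at which domains change side. Which library is first was read from the name of the list. Sequencing depth is unknown. With 1 library per condition no difference has a replicate check, and no p-value is given. Coverage is the part of a chromosome, from just past 3 Mb to the last position any list reaches, that lies in domains of a side. For chromosome 11 that is 118.841 Mb, or 4.92% of the autosomes.

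On the TKO side, cells labelled TKO had 17 domains on chromosome 11 that covered 0.323 Mb or 0.272% of it, against 0.409% of all 19 autosomes. On the TKO control side there were 87 domains that covered 115 Mb or 97.1%, against 28.8% of all 19 autosomes. The control side thus took nearly the whole of the chromosome. Its coverage of the other 18 autosomes had a median of 22.3% and ran from 16.9% on chromosome 13 to 47.9% on chromosome 6. Chromosome 11 was first among the 19 autosomes on this side, 74.9 percentage points above the median of the others. Of all autosomal bases on the TKO control side, 16.6% lay on chromosome 11, against 4.37% of the side's autosomal domains (Wilson 95% interval 3.56% to 5.36%, counting error only). The lists hold no measure of DNA content, so the number of copies of chromosome 11 in a culture and the density of H2A.X on it cannot be told apart.

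**Figure D1:**
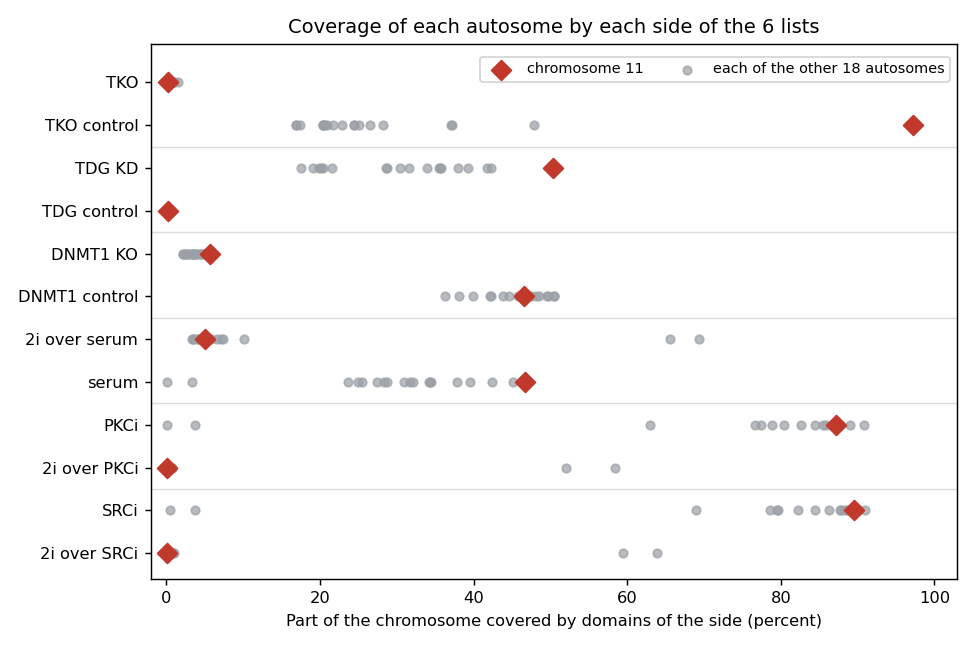
Coverage in percent (horizontal axis) of chromosome 11 (red diamonds) and of each of the other 18 autosomes (grey points) by each side of the 6 lists (rows). On the TKO control side chromosome 11 lies at 97.1% and the highest other autosome at 47.9%; it is also first, by less, on the TDG KD, DNMT1 KO and serum sides.

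The control domains were present along the whole chromosome. In all 24 windows of 5 Mb their coverage was at least 92.3%, with a median of 96.8%. Of the 459 windows of 5 Mb on the other autosomes, 5 reached 90%, and their median was 22.8%. Those 5 windows lay on chromosome 6, where a window reached 99.7% but another had 8.42%. No other autosome had a 5 Mb window above 81.9%, the highest value on chromosome 19. In windows of 1 Mb, all 119 of chromosome 11 were covered by at least 50%, 108 by at least 90% and 62 in full. Elsewhere 433 of 2297 windows of 1 Mb, or 18.9%, were covered by at least 50%, and 655 held no control domain. The standard deviation between 1 Mb windows was 4.69 percentage points on chromosome 11 and 26.7 on the other autosomes. Coverage was 97.2% before the midpoint of the chromosome, at 62420000, and 97.1% after it.

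**Figure D2:**
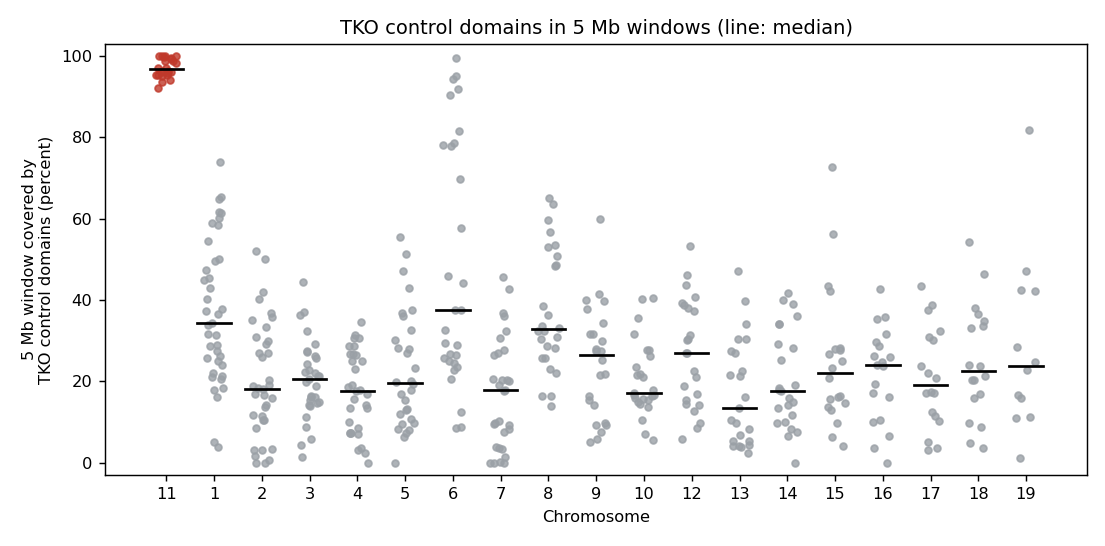
Coverage in percent of 5 Mb windows by TKO control domains, 1 point per window, for chromosome 11 (red, left) and the other 18 autosomes (grey); black lines are medians. All 24 windows of chromosome 11 lie at 92.3% or above, and elsewhere 5 windows, all of chromosome 6, reach 90%.

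Control domains on chromosome 11 were fewer per length and much longer than elsewhere. They numbered 73.2 per 100 Mb, against 82.8 per 100 Mb on the other autosomes. Their median length was 737 kb (quartiles 294 and 1552 kb), against 212.5 kb (quartiles 113 and 385 kb) on the other autosomes. The 35 domains of 1 Mb or more held 82.0% of the control bases of chromosome 11, against 17.8% for the 66 such domains of the other autosomes. Of the 7 autosomal control domains of 5 Mb or more, 5 lay on chromosome 11. They were 35607001 to 44975000 at 9368 kb, 61566001 to 70189000 at 8623 kb, 96944001 to 105022000 at 8078 kb, 107473001 to 114875000 at 7402 kb and 91166001 to 96332000 at 5166 kb. The longest control domain of another autosome was 5659 kb, on chromosome 6.

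The signed score of the same domains set chromosome 11 apart in the same direction. It comes from the same 2 libraries as the coverage by which the chromosome was chosen, so it is no separate support. Weighted by length, the median score of control domains was -0.24 on chromosome 11 and -0.68 over all domains of the other autosomes, where the offset of the list was -0.67. Each of the other autosomes had a median between -0.74 and -0.54, with chromosome 8 at the high end. On chromosome 11, 2 of 87 control domains scored below the offset of the list, against 34.0% of those elsewhere. Control domains hold nearly all bases of this list. The offset is thus near their own middle, and a score below it does not by itself point toward TKO. The scores were also higher at like length. Control domains of 1 Mb or more had scores of -0.64 to 0.11 on chromosome 11 (median -0.24, 35 domains) and of -0.89 to -0.52 on the other autosomes (median -0.73, 66 domains). Those of 200 kb to 1 Mb had medians of -0.27 on chromosome 11 (33 domains) and -0.69 elsewhere (938 domains). Between 50 and 200 kb the medians lay closer, at -0.31 on chromosome 11 (9 domains) and -0.40 elsewhere (760 domains).

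Most of these scores were still below 0, although a high score points toward the control. Of the 87 control domains on chromosome 11, 19 scored above 0, and they held 5.94% of the control bases. Taken alone, these 19 covered 5.77% of the chromosome. Scores above 0 went with short domains, with a median of 40 kb, against 966.5 kb for the rest. The highest score was 11.8, in a domain of 2 kb at 73794001 to 73796000, followed by 4.07 in 5 kb at 30867001 to 30872000 and 3.21 in 21 kb at 116610001 to 116631000. Averaged over 5 Mb windows, the control score ran from -0.52 in the last window, from 118000001 on, to -0.02 between 33000001 and 38000000. In all 24 windows it was above the offset of the list, which lies among the control scores themselves.

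**Figure D3:**
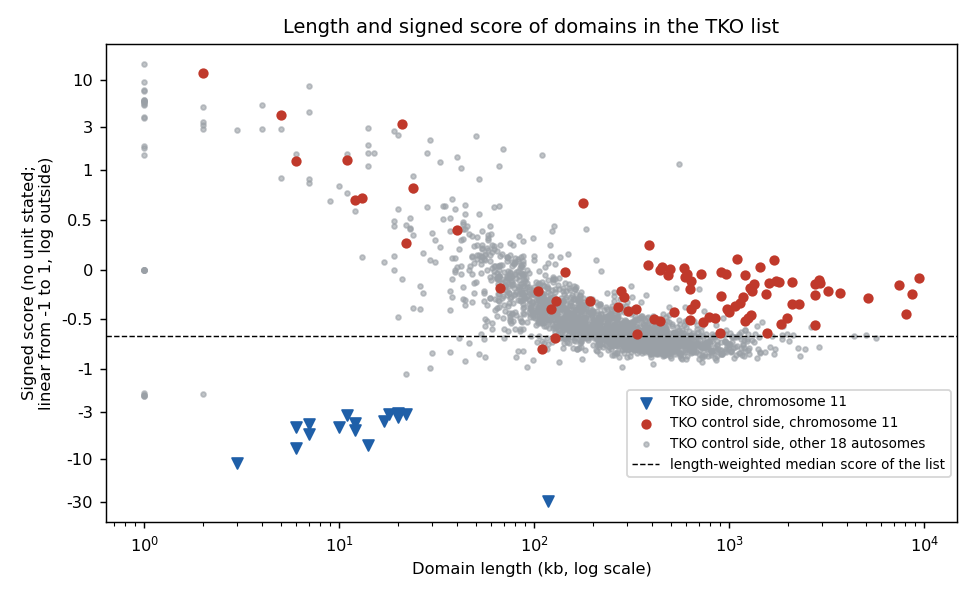
Signed score (vertical axis, no unit stated, linear between -1 and 1 and logarithmic outside) against length in kb (horizontal axis, log scale) of the 17 TKO domains of chromosome 11 (blue triangles), its 87 TKO control domains (red) and the TKO control domains of the other 18 autosomes (grey); the dashed line is the length-weighted median score of the list, -0.67. Control domains of 1 Mb or more on chromosome 11 have a median of -0.24, above the -0.73 of such domains elsewhere.

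The TKO side of chromosome 11 consisted of 1 block at the centromere end and 16 short domains. The block, which ended at 3118000, was 118 kb long, scored -29.4 and held 36.5% of the TKO bases of the chromosome. The other 16 had lengths of 3 to 22 kb and scores of -10.9 to -3.08, with a median of -3.99. Of the 17 TKO domains, 14 touched a control domain at both ends, and the other 3 at 1 end. The control side covers 97.1% of the chromosome, so such contact is nearly fixed in advance. The block starts at the first position used and can have a neighbour at 1 end only. Among the 16 short domains, 18231001 to 18234000 scored -10.9, 117550001 to 117556000 scored -7.58 and 88820001 to 88834000 scored -6.93. The longest of the short ones was 50213001 to 50235000, with a score of -3.15.

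Counted as domains, the sides that cover broad parts of chromosome 11 met its TKO domains at shares near their own coverage of it. In bases their shares of the TKO side were lower than that coverage. They were 62.8% for PKCi, 60.1% for SRCi, 32.5% for TDG KD, 32.2% for serum and 26.9% for DNMT1 control. The centromere block, which none of these sides covers, holds 36.5% of the TKO bases. PKCi and SRCi each met 16 of the 17, or 94.1%, where PKCi covers 87.2% and SRCi 89.5% of the chromosome. On the other autosomes PKCi met 57.4% and SRCi 56.7% of 263 TKO domains, where PKCi covers 75.0% and SRCi 76.6% of all 19 autosomes. The other autosomes include chromosomes 6 and 8, of which PKCi covers 0.138% and 3.69% and SRCi 0.475% and 3.70%. TDG KD and serum each met 8 of the 17, or 47.1%, and DNMT1 control 7, or 41.2%, where TDG KD covers 50.4%, serum 46.8% and DNMT1 control 46.6% of the chromosome. Elsewhere TDG KD met 27.8%, serum 22.1% and DNMT1 control 31.2%, where serum covers 0.152% of chromosome 6 and 3.39% of chromosome 8. Of all 19 autosomes TDG KD covers 30.8%, serum 29.9% and DNMT1 control 45.4%. DNMT1 KO met 2 of the 17, or 11.8%, against 85 of 263, or 32.3%, of the TKO domains on the other autosomes. The 2i side of the serum list met 3 of the 17, or 17.6%, against 143 of 263, or 54.4%, elsewhere. It covers 69.4% of chromosome 6 and 65.6% of chromosome 8. TDG control met 1 of the 17, which was the block at the centromere end, against 49 of 263 elsewhere. In bases the shares of DNMT1 KO, 2i over serum and TDG control were higher on chromosome 11, through the centromere block. DNMT1 KO covered 37.2% of the TKO side there and 32.5% elsewhere, 2i over serum 33.4% and 30.9%, and TDG control 31.0% and 13.9%. Of chromosome 11 itself DNMT1 KO covers 5.68%, 2i over serum 5.01% and TDG control 0.191%. Of all 19 autosomes they cover 3.67%, 12.1% and 0.277%. On chromosome 11 the centromere block alone was wholly on the DNMT1 KO side. It was 2i over serum for 86.4% and TDG control for 84.75% of its length. Outside the block, DNMT1 KO held only 16.7% of the domain 53944001 to 53956000. There 2i over serum held 16.7% of that domain and 28.6% of 88820001 to 88834000, and TDG control held no TKO base. The higher shares in bases thus rest on 1 domain.

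**Figure D4:**
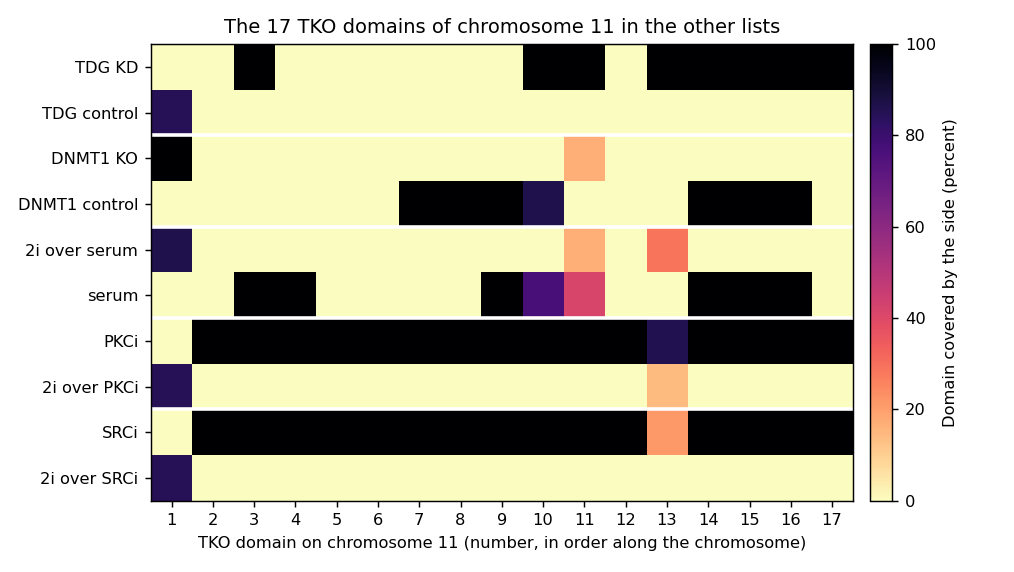
Percent of each of the 17 TKO domains of chromosome 11 (columns, in order along the chromosome) that lies in domains of each side of the other lists (rows). Column 1 is the block at the centromere end, with 100% on the DNMT1 KO side; columns 2 to 17 lie mainly on the PKCi and SRCi sides.

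At that block, every list held a domain that started at the first position used, and all 6 were on the side with fewer bases on the chromosome. It was 118 kb on the TKO side with a score of -29.4, 100 kb on the TDG control side with 15.7 and 120 kb on the DNMT1 KO side with -40.5. On the 2i side it was 102 kb over serum with -143, 100 kb over PKCi with 94.8 and 100 kb over SRCi with 98.7. These scores have no common scale between lists. Over PKCi and over SRCi the same 2i library may enter, and the lists that name 2i are set side by side only.

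A total of 73 stretches, 3389 kb together with a median of 27 kb, lay outside the TKO control side. Of these bases 323 kb were on the TKO side and 3066 kb, or 2.58% of the chromosome, on neither, against 74.3% of the other autosomes on neither. The longest stretches were 5953001 to 6184000 at 231 kb, 88651001 to 88834000 at 183 kb, 70983001 to 71137000 at 154 kb, 107325001 to 107473000 at 148 kb and 117074001 to 117215000 at 141 kb. Each of these 5 lay wholly on the TDG KD side. The next in length, 48743001 to 48879000 at 136 kb, held none of it, and 7 of the 12 stretches of 100 kb or more lay wholly on it. Of all 73 stretches, 33 lay wholly on the TDG KD side and 39 held none of it. In bases, TDG KD covered 56.2% outside the control side and 50.2% inside, close to its 50.4% of the whole chromosome. PKCi covered 57.5% of the bases outside the control side and 88.1% of those inside, and SRCi 64.5% outside and 90.2% inside. Windows of 1 Mb with the least control coverage were 88000001 to 89000000 at 76.1% and 6000001 to 7000000 at 79.8%.

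Knockdown of TDG gave the other list from 129/Ola cells. The TDG KD side held 59 domains on chromosome 11, which covered 59.9 Mb or 50.4% of it, against 30.8% of all 19 autosomes. The TDG control side held 21 domains, which covered 0.227 Mb or 0.191%, against 0.277% of all 19 autosomes. Chromosome 11 was first among the 19 autosomes on the knockdown side, ahead of chromosome 7 at 42.2%, and the median of the others was 31.0%. The side that led here was the knockdown, where in the TKO list it was the control. The pairs come from separate libraries of the same strain.

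The TDG KD domains lay toward the distal end of chromosome 11. They covered 33.3% of it before its midpoint and 67.5% after, a difference of 34.2 percentage points. The same difference on the other autosomes had a median of 19.7 and ran from -18.9 to 41.6, and chromosome 11 had rank 4 of 19. Among 5 Mb windows, 113000001 to 118000000 had 98.8%, while 13000001 to 18000000 and 38000001 to 43000000 held no knockdown domain. In both of these empty windows TKO control coverage was at least 98.9%. The 3 longest knockdown domains were 116630001 to 121679000 at 5049 kb, 94192001 to 97975000 at 3783 kb and 66885001 to 70620000 at 3735 kb. The longest of them scored -0.31, where low scores point toward the knockdown and the offset of this list was 0.29.

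Of the TDG KD bases on chromosome 11, 96.8% lay in TKO control domains, which cover 97.1% of the chromosome. On the other autosomes 20.3% did, where TKO control covers 25.2%. The share on chromosome 11 was thus close to the coverage of the chromosome itself. Of the TDG control bases of chromosome 11, 55.9% lay in TKO control domains, and the 100 kb of the centromere block lay outside them.

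In the DNMT1 list, the knockout side held 93 domains on chromosome 11, which covered 6.75 Mb or 5.68%, against 3.67% of all 19 autosomes. The control side held 148 domains, which covered 55.4 Mb or 46.6%, against 45.4% of all 19 autosomes. Chromosome 11 was first of 19 on the knockout side, ahead of chromosome 17 at 5.02%, and had rank 11 on the control side. With the 50% of domains that scored highest, the knockout side had rank 4. So in this list only the knockout side stood at the edge of the range of the autosomes. Domain lengths were close to those elsewhere. Knockout domains had a median of 43 kb on chromosome 11 and 44 kb on the other autosomes, and control domains 221.5 kb and 245 kb.

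Part of the knockout coverage came from 1 segment. The 5 Mb window 28000001 to 33000000 was covered by 24.6% on the DNMT1 KO side, the highest of the 24 windows, where the third quartile was 8.44%. It held 10 knockout domains of 16 to 665 kb, 1228 kb together. The longest of them, 30506001 to 31171000, scored -5.66, and 30000001 to 31000000 was the 1 Mb window with the most knockout coverage, 58.3%. The 2i side of the serum list also had its highest 5 Mb window there, at 16.4%. Within the 665 kb domain, 40.0% of the length was 2i over serum, 52.6% PKCi and 50.5% SRCi. Serum and TDG KD covered none of it, and TKO control covered 99.8%.

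Of the 93 DNMT1 KO domains on chromosome 11, 59, or 63.4%, met a 2i domain of the serum list, against 70.2% of the 1377 on the other autosomes. The 2i side of that list covers 5.01% of chromosome 11 and 12.1% of all 19 autosomes. The other autosomes include chromosomes 6 and 8, of which it covers 69.4% and 65.6%, so these 2 shares are not like for like. TKO control met 92 of the 93, or 98.9%, against 13.1% elsewhere. In bases, 94.3% of the knockout side of chromosome 11 lay in TKO control domains, against 8.70% on the other autosomes, where TKO control covers 97.1% of chromosome 11 and 25.2% of the others. On the other autosomes knockout and TKO control domains were thus mostly apart, and on chromosome 11 the control side took in almost all of them. The next 3 knockout domains by length were 33133001 to 33435000 at 302 kb, 105456001 to 105753000 at 297 kb and 54253001 to 54481000 at 228 kb. The domain of 302 kb was 2i over serum for 70.9% of its length, that of 297 kb for 35.4% and that of 228 kb for 77.6%.

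In wild-type cells, the 2i side held 268 domains above serum on chromosome 11, which covered 5.96 Mb or 5.01%, against 12.1% of all 19 autosomes. The serum side held 301 domains, which covered 55.6 Mb or 46.8%, against 29.9% of all 19 autosomes. The median over the other 18 autosomes was 4.77%, close to chromosome 11, while chromosome 6 reached 69.4%. The serum side was first of 19, with chromosome 7 next at 45.2% and a median of 31.4% over the others, but had rank 4 with the 50% of domains that scored highest. Serum domains had a median of 109 kb on chromosome 11 and 93 kb on the other autosomes, and 2i domains 13 kb and 14 kb.

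Serum domains, like those of TDG KD, lay toward the distal end, with 34.4% before the midpoint and 59.1% after. This difference of 24.8 percentage points had rank 4 of 19, where the other autosomes had a median of 7.32 and ran from -18.3 to 32.7, with 11 of the 18 above 0. The longest were 113459001 to 114868000 at 1409 kb, 80588001 to 81915000 at 1327 kb and 118099001 to 119303000 at 1204 kb. Serum and TDG KD shared 45.5 Mb of chromosome 11, which is 76.0% of the TDG KD bases and 81.8% of the serum bases. On the other autosomes the shares were 61.7% of the TDG KD bases and 63.3% of the serum bases. The 61.7% is lowered by chromosomes 6 and 8, where TDG KD covers 35.8% and 41.8% but serum 0.152% and 3.39%. The shares without these chromosomes were not computed, so a higher sharing on chromosome 11 cannot be read from this. Across the 119 windows of 1 Mb, coverage by TDG KD and serum had a Spearman's rho of 0.872 and a Pearson's r of 0.865. These windows are neighbours on 1 chromosome and share its base composition and mappability, so the values are a description. The TDG libraries were labelled 129/Ola and the 2i library of the serum list 129S6/C57B6.

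The lists that name PKCi and SRCi gave chromosome 11 broad coverage, 2.20 percentage points above the median of the other autosomes for PKCi and 2.49 for SRCi. With the 50% of domains that scored highest these differences were 20.6 and 22.5 points. PKCi held 135 domains that covered 87.2%, against 75.0% of all 19 autosomes, and 2i over PKCi held 3 domains that covered 0.0926%, against 6.53%. That 6.53% includes 52.1% of chromosome 6 and 58.4% of chromosome 8, and the median of the other 18 autosomes was 0.338%. SRCi held 167 domains that covered 89.5%, against 76.6% of all 19 autosomes, and 2i over SRCi held 1 that covered 0.0841%, against 7.28%. Here chromosome 6 had 59.5% and chromosome 8 had 63.9%, and the median was 0.260%. Chromosome 11 had rank 15 of 19 on both 2i sides. The medians of the other 18 autosomes were 85.0% for PKCi and 87.0% for SRCi, and chromosome 11 had rank 6 of 19 for PKCi and rank 4 for SRCi. Scores of PKCi domains had a length-weighted median of 4.58 on chromosome 11 and 5.07 elsewhere, and those of SRCi domains 5.74 and 6.07. In both lists lower scores point away from 2i. The windows least covered by PKCi and SRCi were 83000001 to 88000000 at 58.1% for PKCi and 28000001 to 33000000 at 72.0% for SRCi. The window least covered by SRCi is also the one most covered by DNMT1 KO.

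**Figure D5:**
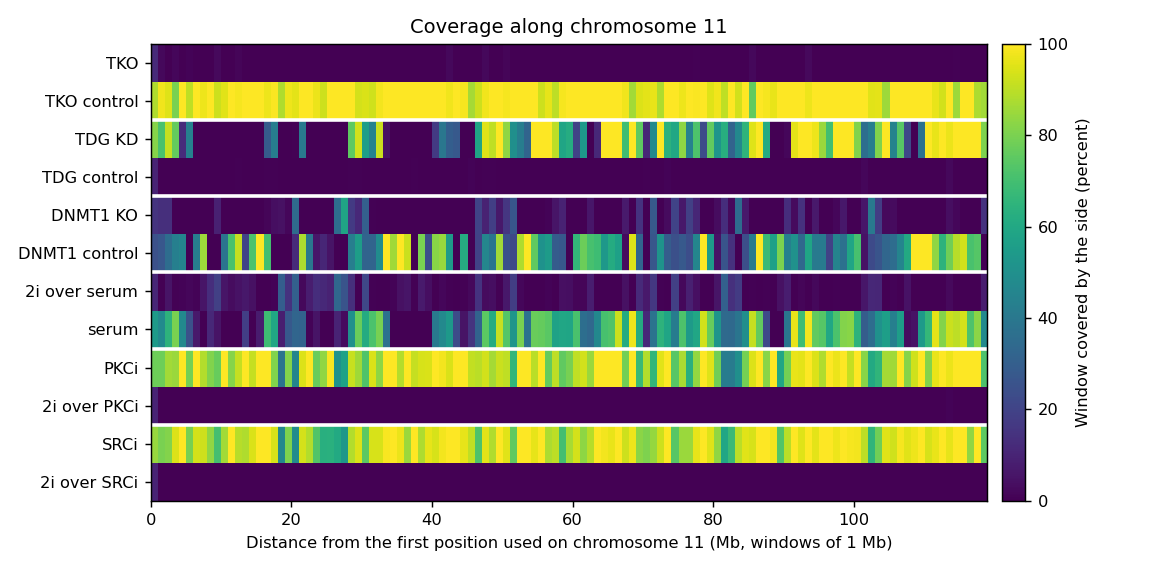
Coverage in percent (colour) of 119 windows of chromosome 11 (horizontal axis, Mb from the first position used; windows of 1 Mb) by each side of the 6 lists (rows). The TKO control row is near 100% throughout, with a lowest window of 76.1%, while TDG KD and serum are higher after the midpoint (67.5% and 59.1%) than before it (33.3% and 34.4%).

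Beyond the centromere block, 2i domains over PKCi stood at 2 places of chromosome 11. The first, 88829001 to 88831000, scored 42.2. There the TKO list had its TKO domain of 14 kb with a score of -6.93 and the serum list a 2i domain of 4 kb, 88828001 to 88832000, with -43.8. The TDG list had a TDG KD domain of 2157 kb over the place. The second, 116602001 to 116610000, scored 25.1, and it was part of a site where several lists changed side. DNMT1 KO held 116600001 to 116636000 with -17.0 and 2i over serum 116602001 to 116629000 with -23.2. TDG control held 116606001 to 116627000 with 1.60, the lowest of its 21 scores on the chromosome. In the TKO list the site was on the control side, with 3.21 at 116610001 to 116631000, rank 3 among the control scores of the chromosome. The 2i domain over PKCi itself lay in the control domain before it, 115873001 to 116610000, which scored -0.53. TDG KD domains ended at 116601000 and began again at 116630001. The DNMT1 KO side thus met the TKO control side here, as did 92 of its 93 domains on the chromosome. It met the TKO side at the centromere block and over part of 53944001 to 53956000.

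The most frequent state of chromosome 11 was TKO control with TDG KD, DNMT1 control, serum, PKCi and SRCi, at 23.6% of its length. TKO control with DNMT1 control, PKCi and SRCi made up 13.8%, and TKO control with PKCi and SRCi 13.6%. The longest stretches on the same sides of all 6 lists were 113459001 to 114834000 at 1375 kb and 118099001 to 119291000 at 1192 kb, followed by 71137001 to 71952000 at 815 kb and 52222001 to 52956000 at 734 kb. All 4 were of that first state. TKO control covers 97.1%, PKCi 87.2% and SRCi 89.5% of the chromosome, so their part in the commonest states is nearly fixed in advance. The lists of serum, PKCi and SRCi all name 2i, so the 6 lists are not 6 separate comparisons. Shares of these states on the other autosomes were not computed. A total of 505 kb, 0.425% of the chromosome, lay in no list. It fell in 12 stretches, of which the longest were 60387001 to 60486000 at 99 kb and 27746001 to 27821000 at 75 kb.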

How the data were processed

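H2A.X chromatin immunoprecipitation libraries of 8 samples enter through 6 lists of domains that the authors deposited. Per the submitters' processing notes, the tool was Bowtie2 2.0.6 and the build mm9. The domain caller, its settings and any depth scaling were not given in the sources used here, and depth is unknown. The deposited files give each domain a signed score and a second score, both the authors' own with no unit stated; they were used within a list only, and the second score is not reported. Libraries of a list were told apart by the order in its name.

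Domains were laid on bins of 1 kb with Python 3.11.15, numpy 2.4.6, scipy 1.17.1 and pandas 2.3.3. Coverage, windows of 1 and 5 Mb, lengths, length-weighted scores and shared bases were computed, and the code was checked on simulated domains. X and Y were left out of comparisons. Named regions were every TKO domain, the 5 longest and 5 highest-scoring domains per side, the 5 longest stretches outside TKO control and the 5 longest regions on the same sides of 3 or more lists. Only some of these are printed, and other regions named were chosen after their values were seen. The chromosome, windows and lists of sides were chosen with earlier results of these data known. No test was made, since each condition has 1 library. Alternatives were the 50% of domains scoring highest toward their side, merging of domains within 10 kb, domains of 10 kb or longer, omission of the first and last 5 Mb, control domains with a score above 0, omission of chromosomes 6 and 8, other windows and an overlap of 50% of the shorter domain. Gene names and sequences were not used, because the tables at hand are on another build.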

Additional observations from a re-analysis of the deposited data

How the results depend on the processing

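Of 156 values under alternatives, 26 were classed as moved. Coverage and overlap counted as moved when they left the Wilson 95% interval over 119 windows of 1 Mb. A difference from the median of the other autosomes did so when it shifted by 50% or more of the interval's width. Counts did so when they changed by over 1.5 times. The share of windows covered by at least 50%, which was 100% at both window sizes, was classed as unchanged without a rule. Windows are not independent, and for sides near 0% that interval reaches 3.13%, so it cannot register their changes. Without the first and last 5 Mb, coverage was 0.148% for TKO, 0.117% for TDG control, 0.00919% for 2i over PKCi and 0% for 2i over SRCi, against 0.272%, 0.191%, 0.0926% and 0.0841% on the whole chromosome; this setting leaves out the centromere block. Chromosome 11 had rank 1 of 19 on the TKO control side in each of the 5 alternatives in which ranks were computed. The chromosome was chosen for its coverage on this side, so these ranks are a description and no separate support. With control domains above 0 alone, its coverage was 5.77%, 5.45 points above the median of the others. With the 50% of highest-scoring domains that difference was 89.4 points, against 74.9 with all, and TKO control covered 94.6% of chromosome 11. In that setting the difference was 20.6 for PKCi and 22.5 for SRCi, against 2.20 and 2.49, and coverage was 37.2% for TDG KD, 1.40% for DNMT1 KO, 19% for DNMT1 control, 0.875% for 2i over serum, 22.8% for serum, 57.9% for PKCi and 65.9% for SRCi. DNMT1 KO and serum then had rank 4 of 19, against rank 1 with all domains. Counts were 7 for TKO, 10 for TDG control, 47 for DNMT1 KO, 82 for DNMT1 control, 137 for 2i over serum and 166 for serum. Domains of 10 kb or longer numbered 6 for TDG control, 151 for 2i over serum and 1 for 2i over PKCi. Where sharing had to reach 50% of the shorter domain, 84.7% of TDG KD, 80.5% of DNMT1 KO, 92.3% of DNMT1 control, 92.0% of PKCi and 90.9% of SRCi bases lay in TKO control domains. These settings keep fewer domains by construction. The 50% setting picks domains by score over all chromosomes. On chromosome 11 scores lay further toward the TKO control, PKCi and SRCi sides than elsewhere. It kept 82 of 87 TKO control, 96 of 135 PKCi and 115 of 167 SRCi domains there, so the filter itself widens these 3 differences. No other cause was tested. Counting length from position 1, added after seeing the data, gave 94.8% for TKO control. No paired analysis was possible because there is 1 library for each condition.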
